A study of Mus musculus with 19 samples.

Results

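Expression of the 8 genes Fos, Fosb, Fosl1, Fosl2, Jun, Junb, Jund and Atf3 was compared between mouse glial progenitor cells (GPC) and glia, and the binding of SOX3 and SOX9 near them was read from the progenitors' peak lists. The genes were taken by symbol and were all found among the 22958 gene lines of the expression table. The progenitors came from embryonic stem cells (ESC) treated with 0.1 µM all-trans retinoic acid, were sorted with magnetic beads for the surface antigen A2B5 on day 8, and were grown with EGF and FGF2 at 10 ng/ml. The glia are labelled ESC-derived glial cells and carry the same protocol text, so their growth conditions are not known apart from it, and neither are a genotype or the number of stem cell lines. There were 4 GPC and 3 glia RNA libraries, numbered as replicates. The labels do not say whether these were separate cultures, and the p-values therefore reflect variation among these libraries, which may be technical. For binding there were 2 SOX3, 3 SOX9 and 2 NFIA chromatin immunoprecipitation (ChIP-seq) samples, all GPC, each factor with 1 peak list.

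AP-1 is a dimeric transcription factor of the basic leucine zipper (bZIP) class. Fos proteins need a Jun partner to bind DNA, while Jun proteins can also pair with each other, and ATF3 is a related bZIP factor induced by stress that binds alone or with Jun proteins. Fos, Fosb, Jun, Junb and Atf3 are immediate early genes, transcribed within minutes of growth factor, activity or stress signals through ERK, JNK and p38 kinases. In astrocytes AP-1 is known for its place in the response to injury.

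The libraries held 6897294 to 22439837 reads in genes, with glia replicate 2 the shallowest and GPC replicate 3 the deepest. Counts of GPC replicate 3 stood apart from the other GPC libraries. The chi-square statistic per gene was 25.8 to 29.9 in pairs with it and 2.05 to 3.59 among the others. Results that rest on GPC replicate 3 are therefore given with and without it. Pairs of glia libraries gave 4.33 to 10.0, the highest for replicates 2 and 3. Most progenitor, astrocyte and oligodendrocyte markers went with the labels, but mesenchyme markers and most neuron markers rose in glia as well. Of 8 progenitor markers 6 fell and 2 rose in glia, and 7 of 8 astrocyte markers and all 8 oligodendrocyte markers rose. All 8 mesenchyme markers rose too, from a summed 105 to 111.5 RPKM in GPC to 450.2 to 555 RPKM in glia. Over all genes tested, by the test described below, 35.2% rose and 35.2% fell. Summed microglial markers came to 4.94 to 5.72 RPKM in GPC and 11.2 to 11.96 RPKM in glia. Most of these sums came from Tmem119, with means of 1.74 RPKM in GPC and 8.07 RPKM in glia, and Cd68, at 3.42 and 3.26 RPKM. Tmem119 rose, while Cd68 did not pass the test. Cx3cr1 was at 0 reads in every library, and 6 of 8 markers were below 1 RPKM throughout. Of 6 neuron markers 5 rose. Endothelial markers were below 4 RPKM in sum with Cldn5 at 0, and of the 2 tested Kdr rose and Emcn fell. The 5 pluripotent cell markers summed to 1.51 to 2.36 RPKM in GPC and 0.296 to 1.15 RPKM in glia. Of these 5, Pou5f1, Zfp42 and Dppa5a were at 0 in every library, and Esrrb, the 1 with enough reads to be tested, fell. Nanog, with too few reads for the test, averaged 0.284 RPKM in GPC and 0.575 RPKM in glia. The part of these cell types in the results below was not tested.

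Atf3 and Fos were clearly higher in glia, Fosl2 rose less and less surely, and the Jun genes did not pass the test. Of the 8 genes 6 had enough reads to be tested, and of these 3 rose and 0 fell at a two-sided adjusted p below 0.05 (quasi-likelihood F test of edgeR, adjusted over all genes by Benjamini and Hochberg). Over all 13588 genes tested, 35.2% rose and 35.2% fell, 70.4% in all, so a count of 3 called among 6 does not stand out from the background. The median log2 change was 0.66 over the 6 genes and 0.0013 over all genes tested. At an unadjusted p below 0.05 in edgeR 1 gene was lower in glia, Jun, and by the DESeq2 Wald test 1 fell, again Jun. Fewer cells expressing a gene and less of its RNA per cell cannot be told apart in these bulk libraries.

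**Figure D1:**
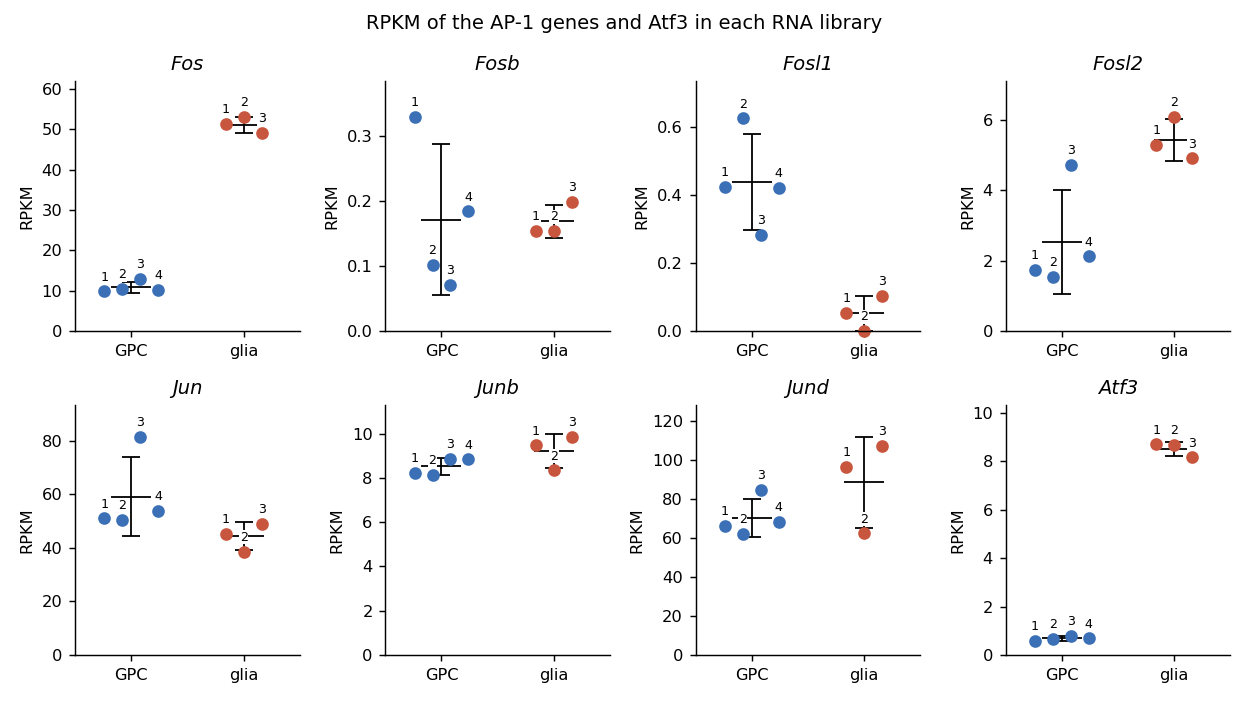
RPKM (vertical axes, linear from 0, a scale of its own for each gene) of the 8 genes in the 4 GPC libraries (blue) and 3 glia libraries (red), with replicate numbers; bars give the mean and SD. The glia points of Fos and Atf3 lie far above the GPC points, while GPC replicate 3 stands high for Fosl2 and Jun and glia replicate 2 low for Jund.

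The promoters of the 3 genes that rose and of Jun are shown because AP-1 and ATF factors are known to act back on their own genes. They are the RefSeq sequences of assembly GRCm38.p6 from 250 bases before to 50 bases after the start of the gene, 5′ to 3′ on the strand of the gene, and 7 of the 8 genes had such an entry. Capitals mark matches on either strand to the AP-1 site TGACTCA, the cAMP response element (CRE) TGACGTCA, its shorter forms TGACGT and TGACG, which overlap it and each other, the site TGACATCA, or TATAAA. The windows lie at chr12:85473640-85473939 (plus strand) for Fos, chr1:191183284-191183583 (minus) for Atf3, chr5:32136222-32136521 (plus) for Fosl2 and chr4:95052173-95052472 (minus) for Jun.
Fos: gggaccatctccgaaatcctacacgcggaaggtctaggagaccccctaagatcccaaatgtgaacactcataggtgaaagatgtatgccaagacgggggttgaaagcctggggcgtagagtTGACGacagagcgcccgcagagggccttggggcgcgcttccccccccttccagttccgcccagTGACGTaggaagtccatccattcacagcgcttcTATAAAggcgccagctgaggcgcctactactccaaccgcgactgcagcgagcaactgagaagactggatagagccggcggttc
Atf3: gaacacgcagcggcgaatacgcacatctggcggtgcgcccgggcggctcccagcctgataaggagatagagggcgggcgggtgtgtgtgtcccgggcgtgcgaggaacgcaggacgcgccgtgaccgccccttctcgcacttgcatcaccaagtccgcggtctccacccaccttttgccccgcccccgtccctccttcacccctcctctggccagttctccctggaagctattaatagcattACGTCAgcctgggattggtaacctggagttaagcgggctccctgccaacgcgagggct
Fosl2: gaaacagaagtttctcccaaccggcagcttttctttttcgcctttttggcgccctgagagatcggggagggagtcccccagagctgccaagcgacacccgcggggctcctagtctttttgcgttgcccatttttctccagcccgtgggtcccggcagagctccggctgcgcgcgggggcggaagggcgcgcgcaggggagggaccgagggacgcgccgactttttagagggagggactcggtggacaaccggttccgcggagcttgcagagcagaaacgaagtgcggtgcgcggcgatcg
Jun: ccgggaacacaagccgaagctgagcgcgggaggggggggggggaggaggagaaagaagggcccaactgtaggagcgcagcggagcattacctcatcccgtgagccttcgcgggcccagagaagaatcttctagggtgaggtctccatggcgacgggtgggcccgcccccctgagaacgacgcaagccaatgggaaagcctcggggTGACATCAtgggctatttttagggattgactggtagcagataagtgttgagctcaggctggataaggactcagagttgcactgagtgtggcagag

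Matches to the shorter CRE forms were found in the genes that changed most, and in others too. Fos held TGACGT at positions -66 to -61 from its start, a further TGACG at -129 to -125 and TATAAA at -33 to -28. Atf3 held TGACGT on the opposite strand, at -8 to -3, and Jun held TGACATCA at -45 to -38. TGACGT is in 7.51% of the 32851 promoter windows of the table, TGACATCA in 3.62%, TGACG in 20.8% and TATAAA in 13.6%. Fosb, with too few reads for the test, and Junb, which did not pass it, each held TGACG, and Junb also TATAAA at 1 to 6. None of the 7 windows held TGACTCA or TGACGTCA, which are in 5.20% and 1.79% of all windows, or a CArG box, the site of serum response factor (1.63%), and those of Fosl2 and Jund held none of these motifs. The matches describe letters in these windows and not bound sites. A site more than 250 bases before the start, a CArG box included, would not be seen here. Neither would a site near a start other than the RefSeq one. Whether the RefSeq starts are those used in these cells was not tested.

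Atf3, the stress-induced factor, changed most. Its level was 0.570, 0.677, 0.798 and 0.683 in GPC replicates 1 to 4 in RPKM, reads scaled to gene length and library size, and 8.71, 8.69 and 8.17 RPKM in glia replicates 1 to 3. Every glia library was more than 10 times above every GPC library. The log2 change was 3.55 ± 0.14 (SE; adjusted p = 1.85e-08), which ranked 312 from the top among the genes tested. In GPC this level rested on 87 reads over the 4 libraries, against 696 over the 3 glia libraries.

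Fos, which encodes the Fos partner of the classical AP-1 dimer, rose at a much higher level. It stood at 9.85, 10.4, 13.0 and 10.1 RPKM in GPC and at 51.4, 53.0 and 49.1 RPKM in glia. The glia libraries lay close together, and none of them overlapped the GPC libraries. The mean was 10.9 ± 1.45 RPKM in GPC (SD, n = 4) and 51.2 ± 1.98 RPKM in glia (n = 3). This is a log2 change of 2.19 ± 0.10 (SE; adjusted p = 4.53e-08). Among all genes of the table the mean level moved from percentile 68.2 in GPC to percentile 92.0 in glia.

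Fosl2, the gene of the Fos-related antigen FRA-2, rose as well. The GPC libraries had 1.73, 1.53, 4.71 and 2.12 RPKM, the glia libraries 5.29, 6.09 and 4.90 RPKM. The groups did not overlap, but GPC replicate 3 came close to the lowest glia library. The log2 change of 1.02 ± 0.38 (SE) passed narrowly (adjusted p = 0.0437). Without GPC replicate 3 it was 1.55 with an adjusted p of 1.64e-07, while without any other library it did not pass, with adjusted p from 0.0714 to 0.123 for a log2 change of 0.84 to 1.09.

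Fosb and Fosl1, the remaining Fos genes, were near the limit of detection. Fosb had 16, 5, 6 and 9 reads in GPC and 10, 4 and 13 reads in glia, and the groups overlapped. With no filter on low counts its log2 change was 0.06 ± 0.48 (SE; adjusted p = 0.919), which leaves room for changes of either sign. Fosl1, the FRA-1 gene, had 3, 5, 4 and 3 reads in GPC and 1, 0 and 1 in glia, in all 15 of 61241392 reads against 2 of 41433193. That is a ratio of 5.07 in favour of GPC, with an exact 95% interval of 1.18 to 45.7 that covers counting error alone. With no filter on low counts Fosl1 fell in the test (log2 change -2.21 ± 0.77, adjusted p = 0.0248). The 0 reads of glia replicate 2 allow up to 0.435 CPM (counts scaled to library size), above the 0.178 to 0.384 CPM of the GPC libraries, so that library does not separate the groups. Reads and RPKM of Fosl1 imply a gene model of 0.550 to 1.10 kb depending on the library, whereas those of Fosb imply the same 3.78 kb in each, so Fosl1 is given here in reads.

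Jun, the founding member of the Jun genes, was the only one of the 6 tested genes with a lower level in glia, and the difference did not pass. The GPC libraries stood at 50.9, 50.5, 81.2 and 53.8 RPKM and the glia libraries at 45.2, 38.6 and 49.0 RPKM. Each glia library was below each GPC library, and GPC replicate 3 was well above the rest. The log2 change was -0.45 ± 0.18 (SE; adjusted p = 0.0563). Without GPC replicate 3 it was smaller, at -0.24, and passed (adjusted p = 0.0167). Leaving out GPC replicate 1 or 2 also gave a pass (adjusted p = 0.0440 and 0.0407), and leaving out any other library did not, with adjusted p of 0.0567 to 0.186.

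Junb and Jund, which encode Jun proteins with weaker and context-dependent activity, did not pass. Junb varied little, from 8.25, 8.14, 8.86 and 8.84 RPKM among GPC to 9.47, 8.34 and 9.85 RPKM among glia. The groups overlapped, and its log2 change of 0.09 ± 0.10 (SE; adjusted p = 0.414) has an approximate 95% interval from its SE of -0.10 to 0.29. Jund was at 66.0, 62.0, 84.7 and 68.3 RPKM in GPC and at 96.4, 62.4 and 107.1 RPKM in glia. Glia replicate 2 lay among the GPC libraries, while glia replicates 1 and 3 lay above them all. The log2 change was 0.31 ± 0.19 (SE, adjusted p = 0.172), with an interval by the same rule of -0.06 to 0.68. It passed without glia replicate 2 (0.50, adjusted p = 0.00628) and without GPC replicate 3 (0.42, adjusted p = 0.0199).

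**Figure D2:**
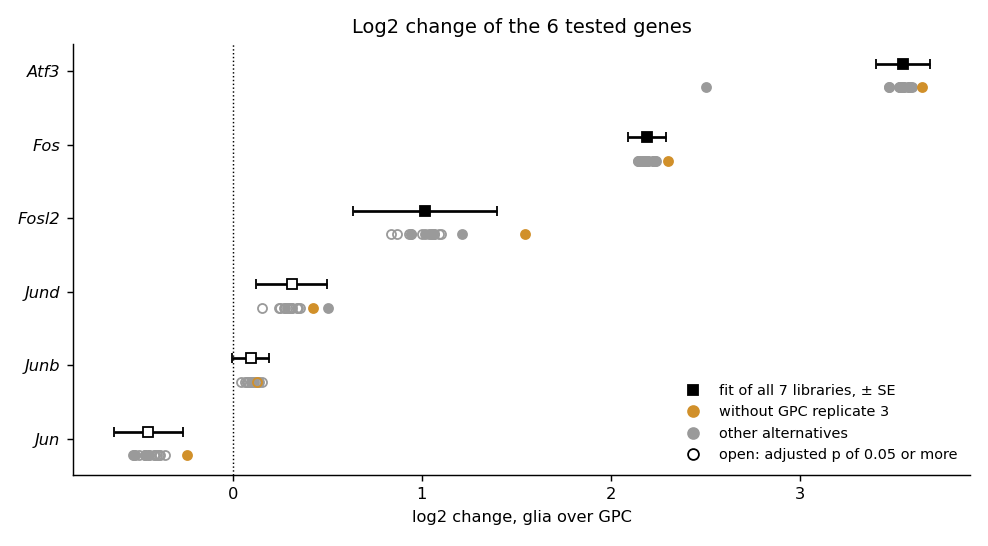
Log2 change of glia over GPC (horizontal axis) for the 6 tested genes, from all 7 libraries with the SE (black squares) and under each alternative setting (circles; orange without GPC replicate 3, grey the others); open symbols have an adjusted p of 0.05 or more. Atf3 and Fos stay filled throughout, and the lone grey point of Atf3 at 2.50 used a pseudocount of 1 RPKM.

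GPC replicate 3 was the highest of the 4 GPC libraries for each of the 6 tested genes, as it was for 36.6% of all genes tested. It exceeded the mean of the other GPC libraries 2.62-fold for Fosl2, 1.57-fold for Jun and 1.29-fold for Jund, and 1.05-fold for Junb. Glia replicate 2 was the lowest glia library for Jun, Junb and Jund, as for 43.0% of all genes, but not for Fos, Fosl2 or Atf3. With GPC replicate 3 left out, 4 of the 6 genes rose (Atf3, Fos, Fosl2 and Jund) and 1 fell (Jun), against 38.1% rising and 37.7% falling among 13550 genes. The groups did not overlap in RPKM for 4 of the 6 genes, Atf3, Fos, Fosl2 and Jun, and for 69.1% of all genes tested.

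The summed levels of the Fos family did not overlap between the groups, and those of the Jun family did. The summed RPKM of Fos, Fosb, Fosl1 and Fosl2 went from 13.99 ± 2.73 (SD, n = 4) in GPC to 56.8 ± 2.49 (n = 3) in glia. Fos made up 78.2% ± 4.40 of it in GPC and 90.1% ± 0.527 in glia, and Fosl2 17.2% ± 6.21 and 9.54% ± 0.655. The deposited RPKM of Fosl1, in doubt as above, was at most 4.93% of this sum in any library. The summed RPKM of Jun, Junb and Jund was 138 ± 24.97 in GPC and 142 ± 29.4 in glia, a difference smaller than the spread between libraries. Inside that sum Jun took 40.7% to 46.5% in the GPC libraries and 29.5% to 35.3% in the glia libraries, and Jund 48.5% to 52.7% and 57.1% to 64.5%. The Fos sum was 9.84% to 10.5% of the Jun sum in GPC and 32.7% to 54.2% of it in glia, where the highest value came from glia replicate 2. The Jun sum exceeded the Fos sum in all 7 libraries.

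**Figure D3:**
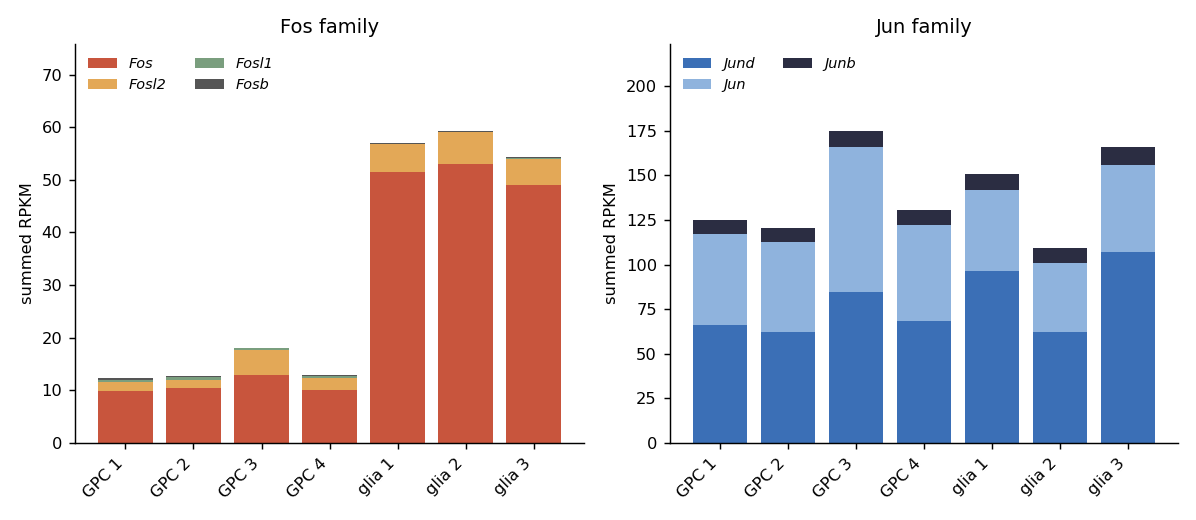
Summed RPKM (vertical axes, from 0) of the Fos family (left) and the Jun family (right) in each library, split by gene. The Fos sum is 12.3 to 18.1 RPKM in GPC and 54.3 to 59.2 RPKM in glia, most of it Fos, while the Jun sums of the groups overlap and Jund is the largest part in every library.

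The order of levels per length changed with the rise of Fos and Atf3. In GPC the order by mean RPKM was Jund, Jun, Fos, Junb, Fosl2, Atf3 and Fosb, leaving out Fosl1, whose RPKM is in doubt. The ranges of Jund and Jun overlapped, although Jund was higher within each of the 4 libraries, and no other neighbours did. In glia the order was Jund, Fos, Jun, Junb, Atf3, Fosl2 and Fosb. There the ranges of Junb and Atf3 overlapped, with Junb higher in 2 of the 3 libraries, and no other neighbours in the order overlapped. Fos and Jun were nearly level in glia replicate 3, at 49.07 and 48.99 RPKM.

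SOX peaks in the progenitors were assigned to 2 of the 8 genes, Jun and Fosl2, by the authors' lists, where 11.5% of the 22431 symbols of the table had a peak of either factor. SOX3 had a peak for 1 of the 8 genes, where 4.46% of all symbols had one, and SOX9 for 2 of the 8, where 9.13% had one. Each factor has 1 list, with no statement of whether its samples were pooled, so binding has no replicate check. Positions are on mm9, the build named in the submitters' processing notes.

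Jun was the gene with peaks of both SOX factors, and they lay on opposite sides of it. The SOX3 peak at chr4:94804419-94804748 was 330 bp wide and centred upstream of the start site, at -85.7 kb, and the SOX9 peak at chr4:94683551-94684151 was centred downstream, at 35.1 kb. They were 120.7 kb apart, so no site was shared between the SOX factors. The SOX9 peak overlapped an NFIA peak, as did 28.4% of all SOX9 peaks, and that NFIA peak had the lowest score of its list, 14, where the median is 16 and the highest 1677. A higher-scoring NFIA peak, at 93, lay upstream of Jun at -10.5 kb (chr4:94729222-94729522), and another lay 70.8 kb downstream with a score of 15. The SOX3 peak overlapped neither a SOX9 peak, as 21.9% of SOX3 peaks did, nor an NFIA peak, as 7.39% did.

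Fosl2 had a SOX9 peak at chr5:32462281-32462881, 23.7 kb downstream of its start site. This peak overlapped neither a SOX3 nor an NFIA peak, and 35.8% of SOX9 peaks lay at least as near to their assigned start site. Its nearest NFIA peak was 66.1 kb away. The 3 NFIA peaks within 100 kb of the Fosl2 start were all upstream, at -42.4, -52.1 and -61.4 kb, with scores of 15, 16 and 17. Start sites on mm9 were taken from the distances in the peak lists, so NFIA peaks could be placed around Jun and Fosl2 but not around the other genes.

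**Figure D4:**
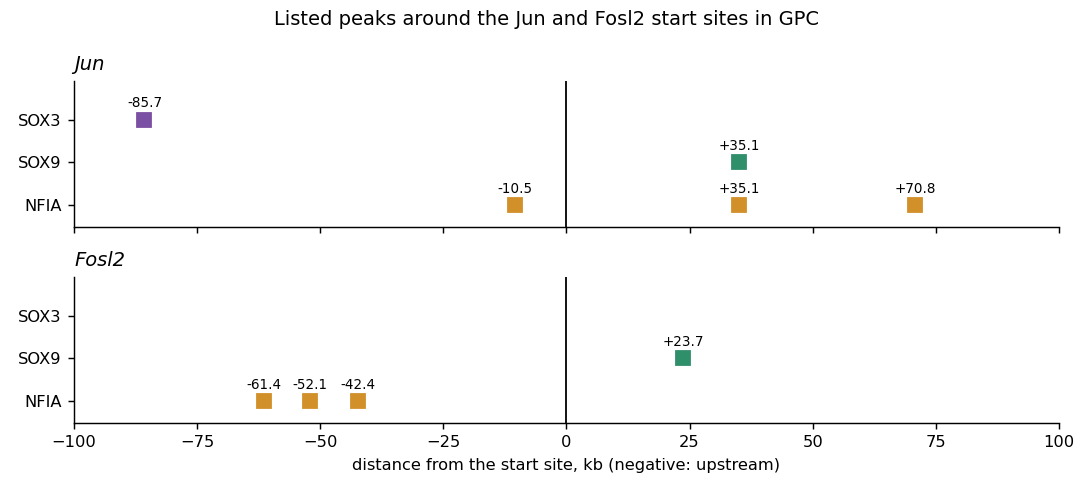
Centres of the listed SOX3, SOX9 and NFIA peaks within 100 kb of the Jun and Fosl2 start sites in GPC; the horizontal axis is the distance from the start site in kb along the gene's strand and the numbers give that distance. For Jun the SOX9 peak coincides with an NFIA peak at +35.1 kb and the SOX3 peak lies at -85.7 kb, and for Fosl2 the SOX9 peak at +23.7 kb stands apart from the NFIA peaks.

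Fos and Atf3, the genes with the largest rises, had no assigned peak of either SOX factor. Of the genes next to the 8 on the chromosome, by RefSeq order of protein-coding genes, Tmed10 beside Fos and Fggy beside Jun had peaks. Tmed10 had 2 SOX3 peaks, at 8.4 kb and -5.5 kb from its start, and a SOX9 peak 8.3 kb downstream. The SOX3 peak at 8.4 kb lay inside that SOX9 peak. Fggy had a SOX3 peak 127.4 kb downstream of its start. Jdp2, the gene of a bZIP repressor on the other side of Fos, had none, and neither had the neighbours of Fosb, Fosl1, Fosl2, Junb, Jund and Atf3.

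Of 26 other bZIP genes, whose factors can share dimers or sites with AP-1, 24 were tested. In glia 13 rose, 4 fell and 7 did not pass, where 35.2% of all genes tested rose and 35.2% fell. The median log2 change was 0.21, against 0.0013 over all genes. Maf, Batf3 and Cebpd rose most among those above 1 RPKM with groups that did not overlap. Maf, a large Maf factor, went from 1.78 ± 0.591 to 14.04 ± 0.229 RPKM (log2 change 2.896 ± 0.19, SE). Batf3, which pairs with Jun proteins, went from 0.973 ± 0.381 to 6.84 ± 1.09 RPKM (2.76 ± 0.25), and Cebpd, a C/EBP factor of acute responses, from 2.36 ± 0.255 to 8.80 ± 1.11 RPKM (1.86 ± 0.14). In the other direction Maff, a small Maf, changed by -1.95 ± 0.22, Cebpa by -0.64 ± 0.14 and Atf4, the effector of the integrated stress response, by -0.62 ± 0.07. The largest adjusted p of these 6 genes was 0.00199, for Cebpa.

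Of 26 genes upstream of AP-1, those of kinases and of serum response factor and its partners, 25 were tested. In glia 15 fell, 2 rose and 8 did not pass, against 35.2% falling and 35.2% rising among all genes, and the median log2 change was -0.29. Without GPC replicate 3, 16 fell and 4 rose, against 37.7% and 38.1% of all genes. Mapk12, a p38 kinase gene, changed by -1.74 ± 0.16 (SE), Map2k6, which activates p38, by -1.56 ± 0.16, and Elk3, an ETS partner of serum response factor, by -1.39 ± 0.08. Mapk10, the JNK3 gene of neural cells, went the other way, from 1.76, 1.84, 2.83 and 1.87 RPKM in GPC to 10.5, 10.5 and 10.4 RPKM in glia (2.28 ± 0.15). Rps6ka5, the kinase MSK1, rose by 0.44 ± 0.11. The largest adjusted p of these 5 genes was 0.00621, for Rps6ka5.

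Of 25 other immediate early genes 24 were tested, and 10 rose, 10 fell and 4 did not pass, with a median log2 change of 0.24. These counts are near the shares of all genes tested, 35.2% in each direction. Egr1, a zinc finger gene induced with Fos by growth factors, was at 91.3, 94.6, 160.3 and 97.8 RPKM in GPC and at 7.18, 7.02 and 7.64 RPKM in glia. It fell where Fos rose, with a log2 change of -3.96 ± 0.24 (SE). Egr3, of the same family, changed by -5.27 ± 0.71 and Arc, a synaptic immediate early gene, by -4.11 ± 0.20. Gadd45b, a stress sensor gene that AP-1 inducing signals also raise, went from 2.80 ± 0.678 to 21.2 ± 0.0469 RPKM (2.84 ± 0.16), its relative Gadd45g rose by 1.79 ± 0.17 and Klf2, a Kruppel-like factor, by 1.26 ± 0.22. The largest adjusted p of these 6 genes was 4.6e-04, for Klf2. GPC replicate 3 was the highest GPC library for 17 of the 24 genes, against 36.6% of all genes tested. Without it 11 rose and 10 fell, against 38.1% and 37.7% of all genes.

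Of 19 known target genes of AP-1, 14 were tested, and 7 rose, 3 fell and 4 did not pass, with a median log2 change of 0.66. Among all genes tested 35.2% rose and 35.2% fell, so calls in both directions are not particular to these targets. The metallothionein genes Mt2 and Mt1, whose promoters carry AP-1 sites in textbook accounts, rose by 2.62 ± 0.20 and 2.27 ± 0.24 (SE), and Cd44, the hyaluronan receptor gene, by 1.79 ± 0.12. The cyclin gene Ccnd1 changed by -3.64 ± 0.16, the osteopontin gene Spp1 by -3.03 ± 0.41 and Hbegf, an EGF receptor ligand, by -0.53 ± 0.19. The largest adjusted p of these 6 genes was 0.0296, for Hbegf. The matrix metalloproteinase genes Mmp3, Mmp9, Mmp10 and Mmp13 and the cytokine gene Il6 had too few reads to be tested.

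The integrated stress response raises Atf3 through ATF4. All 16 of its genes were tested, and 7 rose, 5 fell and 4 did not pass, with a median log2 change of -0.04. These counts are close to the 35.2% rising and 35.2% falling of all genes. The cystine transporter gene Slc7a11 rose most, from 0.330 ± 0.0651 to 9.23 ± 0.245 RPKM (log2 change 4.78 ± 0.12, SE). Nupr1, a stress-induced chromatin protein gene, rose by 1.54 ± 0.31 and Ddit3, which encodes CHOP, by 1.35 ± 0.15. Atf4 itself fell, as above, with the amino acid enzyme genes Psat1 (-0.88 ± 0.07) and Asns (-0.52 ± 0.07). The largest adjusted p of these 6 genes was 0.00136, for Nupr1.

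**Figure D5:**
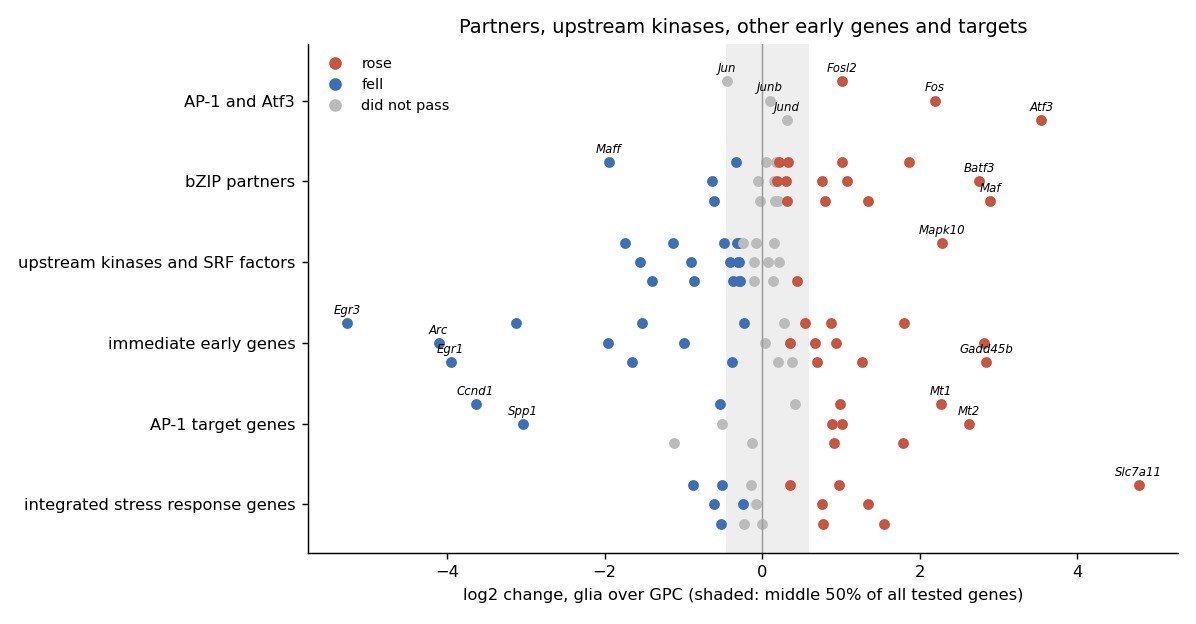
Log2 change of glia over GPC (horizontal axis) for each tested gene of the 5 lists and for the 6 tested AP-1 and Atf3 genes; red rose, blue fell and grey did not pass, and the shaded band spans the middle 50% of all tested genes, -0.45 to 0.59. Egr3, Arc and Egr1 lie at the far left and Fos and Atf3 at the right, so early genes are found on both sides, as are all genes tested.

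The genes whose levels most resembled each tested gene over the 7 libraries were found by Pearson's r of log2 CPM among 12638 genes. Atf3 was most like Aqp4 (r = 0.9999), the water channel gene of astrocytes, Enpp2 (0.9997), the autotaxin gene, and Sparcl1 (0.9996), a matricellular protein gene. Fos was most like 6430548M08Rik (0.9998), Ak5 (0.9997), an adenylate kinase gene, and Zhx2 (0.9997). Jun was most like Agap2 (0.9983), Tyro3 (0.9954), a receptor tyrosine kinase gene, and Sox1 (0.9913), a SOX factor of neural progenitors, and Fosl2 like Atp7b (0.9920), Zfp566 (0.9919) and Slc41a1 (0.9895). Fam171a2 was the nearest gene for Junb (0.9735) and for Jund (0.9954), followed by Barx1 (0.9732) and Cacng4 (0.9640) for Junb and by Lrfn1 (0.9918) and Rnf187 (0.9882) for Jund. The 7 libraries are shared by all these genes and fall into 2 groups, so r includes the step between GPC and glia, and these values are a description.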

How the data were processed

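RNA-seq of 4 GPC and 3 glia libraries and the peak lists of SOX3, SOX9 and NFIA in GPC were used. The inputs and the H3K27Ac samples were not analysed here. Read counts per gene are whole numbers as deposited by the authors, not normalized. RPKM values were computed by the authors from the same libraries, per the file headers, and served for levels. The NFIA score per peak was deposited by the authors, with no definition in the header. MACS and MACS2 and the build mm9 are named in the submitters' processing notes. Aligner, counter and strand setting were not given in the sources used here. Reads of overlapping genes may therefore be mixed. The lines of the 267 symbols listed more than once were tested separately.

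Tests used edgeR 4.0.16 under R 4.3.3 (TMM, filterByExpr with a minimum count of 10, robust quasi-likelihood fits), called at an adjusted p of 0.05 by Benjamini-Hochberg over all 13588 genes. SE is the log2 change over the square root of F. Alternatives used DESeq2 1.42.0, limma 3.58.1 on log2(RPKM + 0.1) or log2(RPKM + 1), other scalings and filters, each library left out, and the replicate number as a block. The fits were tested on simulated data with the same variability for all genes and no library set apart. That test therefore does not bear on calls that turn on GPC replicate 3. Peak overlap was at least 1 bp, and peak symbols were matched directly or by RefSeq synonym. The 8 genes and the lists were chosen with earlier results of these data known. From each list up to 3 rising and 3 falling genes with the largest change are named. They are among those called, with groups that do not overlap and at least 1 RPKM in a group mean. Other genes are named to account for the members, their neighbours, untested list genes or cell type markers.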

Additional observations from a re-analysis of the deposited data

Results flagged for a closer look

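GPC replicate 3 lay far from the other GPC libraries in 12 of the 40 sets of 4 GPC values examined, and in each of the 12 it was the library set apart. About 1 in 20 independent sets is expected by chance to show such a gap. These sets share the same 4 libraries, so the 12 gaps are not independent of each other. Among the genes of the report it was Jun, at 81.2 RPKM against 50.5 to 53.8 RPKM, and the summed RPKM of the Fos family, at 18.1 against 12.3 to 12.9. The reads in genes, 22439837 against 12836998 to 13037426, were also set apart. Of the genes named from the lists, replicate 3 was higher for Egr1 (160.3 RPKM), Mt1 (651 RPKM), Mt2 (190.3 RPKM), Ccnd1 (210.1 RPKM), Hbegf (36.8 RPKM), Elk3 (22.5 RPKM) and Mapk10 (2.83 RPKM), and lower for Mapk12 (7.59 RPKM) and Map2k6 (11.6 RPKM). The cause of these gaps was not tested.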

How the results depend on the processing

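Of 214 alternative values 192 kept their direction and their side of the threshold, or stayed within 1.5 times for a count. No log2 change reversed, while a count could not be scored as reversed. The drop in rising members from 3 to 2 under some settings was within 1.5 times. Fos and Atf3 passed under all 16 alternatives each, with log2 changes of 2.14 to 2.30 and 2.50 to 3.65, and Junb under none of 16. Fosl2 did not pass without the filter on low counts (0.998, adjusted p = 0.0994), and leaving out a library gave 0.84 to 1.55. Jun passed by the DESeq2 Wald test (-0.45, adjusted p = 0.0152), and leaving out a library gave -0.53 to -0.24. For Jund leaving out a library gave 0.15 to 0.50. The number of members that fell was 1 by the DESeq2 Wald test (Jun), 1 without the filter on low counts (Fosl1), and 0 to 1 when a library was left out. The number of genes that rose in the list of upstream kinases and serum response factor partners was 4 without GPC replicate 3. Whether the replicate numbers pair the samples is not known. Deviations of same-numbered GPC and glia libraries correlated by -0.03, 0.15 and 0.06, and those of differently numbered ones by -0.17 to 0.07. Correlations this weak over so few libraries cannot settle it. With the replicate number as a block Fosl2 gave 1.10 (adjusted p = 0.0675) and Jun -0.47 (adjusted p = 0.00814), so that 1 member fell, and 4518 genes rose and 4382 fell over all. The causes of these changes were not tested. At this depth Fosb and Fosl1 could not be measured well.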
